A study of Mus musculus with 7 samples.

Results

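The genes of the voltage-gated calcium channels and voltage-gated sodium channels were followed in pancreatic islets of pregnant mice. They were taken by name, as every gene name that in capitals starts with CACNA, CACNB or CACNG, or that reads SCN, a number and A or B. There were 40 such genes among 34082 gene names, and 21 of them reached the mean of 0.5 TPM (a length-corrected share of all transcripts, which sums to 1000000 in a library) over all mice that was asked for before a test. By the part each plays in a channel, they were 10 calcium pore genes, 4 α2δ genes, 4 calcium β genes, 8 calcium γ genes, 10 sodium pore genes and 4 sodium β genes.

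Islets of 7 females were sequenced on day 15 of pregnancy, 1 library per mouse. In the 4 βPrlR+/- mice the prolactin receptor gene Prlr was removed from β-cells by Pdx1CreER, a Cre recombinase that is driven by the Pdx1 promoter and switched on by tamoxifen, and in the 3 Prlr+/- mice an allele of Prlr was missing from every tissue. The methods call the β-cell deletion heterozygous and the labels call it homozygous, and per the labels the females were 3 to 4 months old at mating. The strain is labelled C57BL/6, and the females were mated to wild-type males. The islets were picked by hand and kept in culture overnight, so they held every islet cell type and whatever vessels and nerves came with them. Only the βPrlR+/- mice carried Cre and were dosed with tamoxifen, and the effects of Cre, drug and genotype cannot be told apart. By the methods and labels, the β-cells of both groups lack at least an allele of Prlr, and no library is of wild-type islets. The titles of the 4 βPrlR+/- libraries contain CkoWt, and the paper does not explain the Wt. As labelled, the comparison is between a deletion in β-cells and a deletion in the whole body.

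In β-cells, closure of potassium channels at high glucose depolarizes the membrane, voltage-gated calcium channels open, and the calcium that enters triggers the release of insulin granules. A calcium channel is built from an α1 pore subunit, named for its current type (L, P/Q, N, R or T), with an α2δ and a β subunit that carry the pore to the membrane and set its gating. A sodium channel is a single α pore subunit with β subunits at its side, and in islets it shapes the fast part of the action potential. The same families are used by neurons, muscle and glia, some of which can come with an islet preparation.

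TPM hold no read counts, so the depth behind a value is unknown, and a gene without a value is given as listed at 0. Values below are scaled TPM, which are TPM divided by a size factor of the mouse that ranged from 0.882 to 1.11, since the insulin genes took between 46.1% and 58.9% of all TPM. TPM are per length of transcript, so levels can be set side by side between genes. PRLR itself lay at 38.4 to 55.7 scaled TPM in the βPrlR+/- mice, against 35.1 to 51.1 in the Prlr+/- mice, and the groups overlapped.

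Among the calcium pore genes, the L-type gene CACNA1D and the P/Q-type gene CACNA1A led in every mouse. CACNA1D, the main L-type pore of mouse islets together with CACNA1C, stood at 14.8, 16.8, 22.7 and 20.9 scaled TPM in βPrlR+/- mice 1 to 4, against 18.1, 16.4 and 18.3 in Prlr+/- mice 1 to 3. CACNA1A, best known from nerve endings, stood at 8.30, 8.61, 12.1 and 9.54 in the βPrlR+/- mice, against 8.94, 9.57 and 9.32 in the Prlr+/- mice. For both genes the Prlr+/- values lay inside the range of the βPrlR+/- values, and βPrlR+/- mouse 3 was the highest of the 7. The other L-type gene, CACNA1C, followed with 3.35, 2.60, 4.36 and 3.35 against 3.92, 3.35 and 3.15, and the N-type gene CACNA1B with 2.55, 2.42, 3.15 and 2.42 against 2.73, 3.10 and 2.40. The groups overlapped for these genes too.

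The order CACNA1D, CACNA1A, CACNA1C, CACNA1B, CACNA1H, CACNA1G, CACNA1F held in all 7 mice. The closest neighbours in it were CACNA1C and CACNA1B, with a ratio of 1.07 to 1.44 across mice, whereas CACNA1D exceeded CACNA1A 1.72- to 2.19-fold. The T-type gene CACNA1H was the lowest calcium pore gene that was tested, at 0.716 to 1.31 scaled TPM. The other T-type genes, CACNA1G and CACNA1I, had means of 0.331 and 0.106. CACNA1F, an L-type gene of the retina, had a mean of 0.146, and its order with CACNA1I held in 6 of 7 mice. CACNA1E, the pore of the R-type current that is often recorded in mouse β-cells, reached only 0.0216 to 0.0827. The muscle gene CACNA1S was listed at 0 in 6 of 7 mice.

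Of the summed TPM of the calcium pore genes, CACNA1D made up 51.7% ± 2.8 (SD, n = 4) in the βPrlR+/- mice, against 51.1% ± 2.3 (SD, n = 3) in the Prlr+/- mice. CACNA1A made up 26.6% ± 1.1 and 26.9% ± 1.5, CACNA1C 9.42% ± 1.2 and 10.1% ± 0.98, and CACNA1B 7.34% ± 0.82 and 7.96% ± 1.1. For each of these 4 genes the share differed between the groups by less than 1 SD. The lower genes CACNA1H, with 2.96% ± 0.43 and 2.44% ± 0.44, and CACNA1G, with 1.07% ± 0.24 and 0.755% ± 0.22, differed by more than 1 SD, though their groups overlapped. Among the sodium pore genes SCN9A made up 64.0% ± 4.3 and 67.3% ± 4.4, a wider spread in percentage points than for any calcium pore gene.

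**Figure D1:**
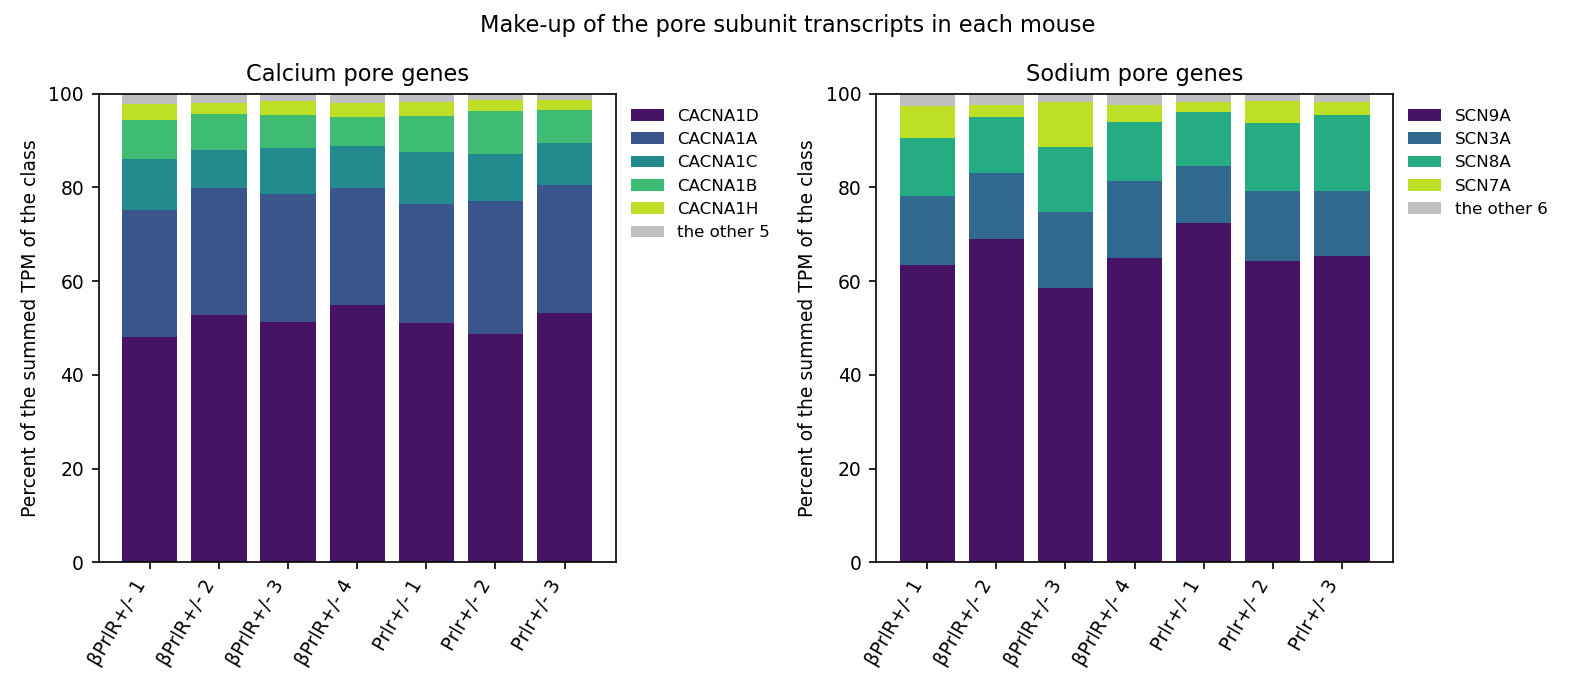
Share of each gene in the summed TPM of the calcium pore genes (left) and the sodium pore genes (right), in percent, with 1 bar per mouse and the lowest genes of the class joined in grey. CACNA1D took between 48.2% and 54.9% in every mouse and SCN9A between 58.6% and 72.3%.

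The start regions of 3 pore genes show how differently genes of this family begin. The RefSeq promoter table of GRCm38.p6, with 250 bases before and 50 bases after a start, held 30 of the 40 genes. CpG, written CG and the same on both strands, was counted in each, and where a gene had several starts the promoter with the most was taken. The L-type genes CACNA1D (highest calcium pore gene, chr14:30353437-30353736, minus strand) and CACNA1S (listed at 0 in most mice, chr1:136052561-136052860, plus strand) and SCN9A (highest sodium pore gene, chr2:66634913-66635212, minus strand) are printed 5′ to 3′ with each CG in capitals.
CACNA1D: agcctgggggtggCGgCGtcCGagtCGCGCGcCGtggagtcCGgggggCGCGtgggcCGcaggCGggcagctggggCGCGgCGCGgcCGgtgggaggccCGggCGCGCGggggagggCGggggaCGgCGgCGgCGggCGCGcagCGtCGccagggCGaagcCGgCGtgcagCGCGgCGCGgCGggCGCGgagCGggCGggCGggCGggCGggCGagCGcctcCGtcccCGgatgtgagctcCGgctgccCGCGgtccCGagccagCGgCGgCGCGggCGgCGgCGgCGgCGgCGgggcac
CACNA1S: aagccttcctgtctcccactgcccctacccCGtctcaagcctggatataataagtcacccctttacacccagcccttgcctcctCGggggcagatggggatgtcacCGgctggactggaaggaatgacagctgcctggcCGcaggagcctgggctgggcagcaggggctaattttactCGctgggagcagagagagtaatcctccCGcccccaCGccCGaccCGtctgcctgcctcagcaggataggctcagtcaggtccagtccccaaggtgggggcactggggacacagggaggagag
SCN9A: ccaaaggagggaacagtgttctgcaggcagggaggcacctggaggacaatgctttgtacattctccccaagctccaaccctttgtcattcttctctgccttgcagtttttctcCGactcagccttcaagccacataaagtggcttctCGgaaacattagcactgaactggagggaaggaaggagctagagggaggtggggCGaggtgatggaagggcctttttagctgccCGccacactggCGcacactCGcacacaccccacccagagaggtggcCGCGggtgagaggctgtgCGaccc
The CACNA1D promoter held 63 CG and the promoters of CACNA1S and SCN9A held 9 each, so a low number did not go with a low level in SCN9A.

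The 15 tested channel genes with a promoter in the table had a median of 35 CG (2 to 63), and 80.0% of them held at least 15. The 15 that were not tested had a median of 9 (2 to 26), and 26.7% held at least 15. The share with at least 15 was 72.6% in the 10239 genes of the table that were tested here, 14.2% in the 11308 that had a value here but were not tested, and 37.1% in all 27025 genes of the table, which include genes without a match here. The tested channel genes thus had a share of CpG-rich starts close to that of all tested genes. SCN9A, SCN7A and SCN2B were the tested members below 15, with 9, 3 and 2 CG.

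Of the α2δ genes, CACNA2D1, the subunit bound by gabapentin, far exceeded the rest. It stood at 25.9, 26.2, 35.9 and 28.5 scaled TPM in the βPrlR+/- mice, against 33.0, 23.8 and 27.0 in the Prlr+/- mice, 20.0- to 41.8-fold above CACNA2D2. CACNA2D2 and CACNA2D3 did not differ in order beyond their spread, since CACNA2D2 was higher in 3 of 7 mice. CACNA2D4, known from the retina, had a mean of 0.207 and was not tested.

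All 4 calcium β genes were tested, and their order was the same in all 7 mice. CACNB3, which is known as a major β subunit of islets, had the highest mean of all 40 genes, with 31.4, 33.1, 32.1 and 37.0 scaled TPM in the βPrlR+/- mice, against 36.4, 29.5 and 39.8 in the Prlr+/- mice. CACNB2 followed at 8.98, 9.51, 10.2 and 10.2 against 11.0, 8.38 and 10.3. The Prlr+/- values of both genes spanned those of the βPrlR+/- mice. CACNB1, the β subunit of skeletal muscle, lay at 5.06 to 6.09 and CACNB4 at 0.748 to 1.10.

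The γ genes include the muscle channel subunits CACNG1 and CACNG6, while most others encode regulators of AMPA-type glutamate receptors (TARPs). CACNG4 and CACNG7, both of the TARP kind, were the only γ genes tested. CACNG2, CACNG3, CACNG8, CACNG1, CACNG5 and CACNG6 followed with means from 0.336 down to 0.00979 scaled TPM. Of these, CACNG1 was listed at 0 in 2 mice and CACNG6 in 3.

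SCN9A, a sodium pore known from sensory nerve and from islet cells, was the highest sodium pore gene in every mouse. It stood at 9.30, 11.3, 14.4 and 12.7 scaled TPM in the βPrlR+/- mice, against 13.4, 10.7 and 9.09 in the Prlr+/- mice, 3.64- to 5.87-fold above SCN3A. SCN3A, the other pore that is described in islet cells, stood at 2.18, 2.31, 3.95 and 3.20 against 2.28, 2.53 and 1.95. SCN8A, a pore of nerve fibres, stood at 1.81, 1.95, 3.41 and 2.49 against 2.11, 2.42 and 2.24. SCN3A and SCN8A were not separated, with a ratio of 0.870 to 1.29 across mice, and βPrlR+/- mouse 3 was the highest for all 3 genes.

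SCN7A encodes Nax, a sodium sensor of glia and other supporting cells. It stood at 0.998, 0.407, 2.34 and 0.701 in the βPrlR+/- mice, against 0.417, 0.786 and 0.412 in the Prlr+/- mice, and βPrlR+/- mouse 3 was more than 2 times as high as any other mouse. The other sodium pore genes were not tested. SCN2A had a mean of 0.145 scaled TPM, the muscle gene SCN4A 0.0581, SCN1A 0.0526, and the sensory neuron genes SCN11A and SCN10A 0.0459 and 0.00142, the last listed at 0 in 4 of 7 mice.

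Of the sodium β genes described here, SCN3B was the highest, followed by SCN2B and SCN4B, in that order in all 7 mice. SCN4B had a mean of 0.103 and was not tested.

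**Figure D2:**
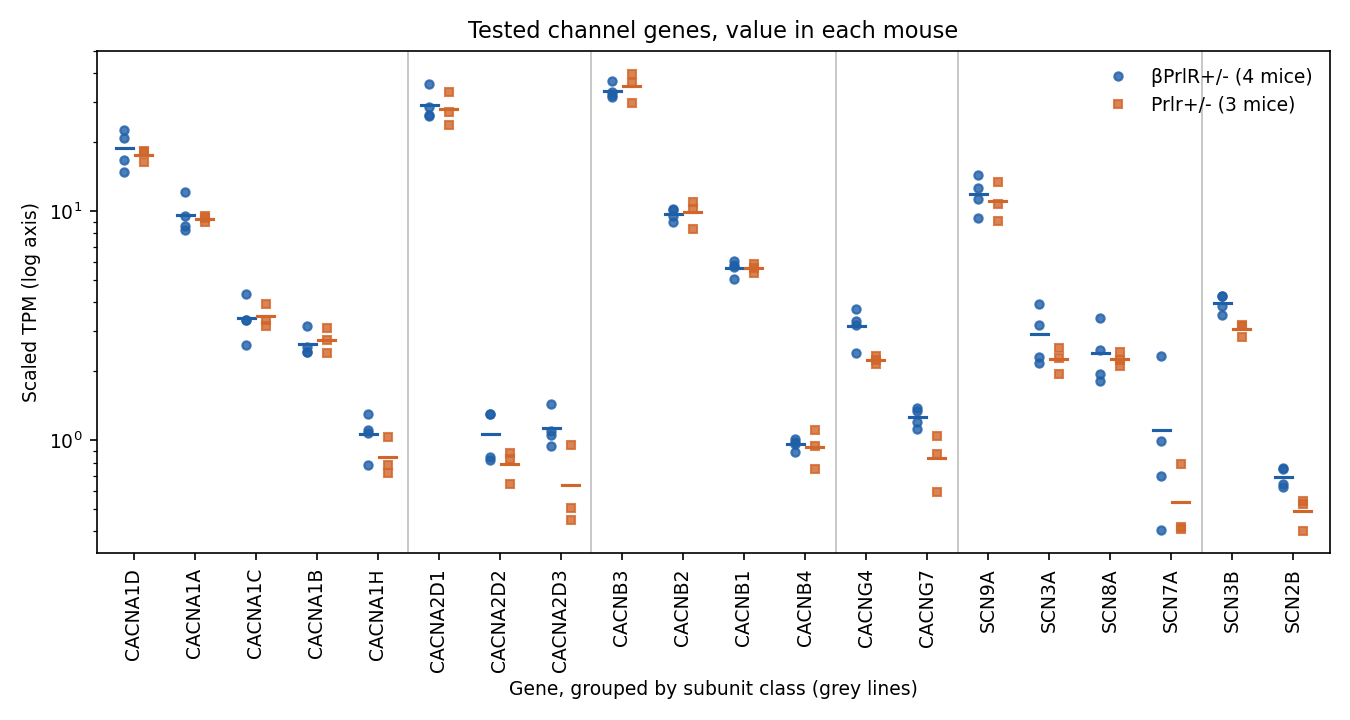
Scaled TPM (log axis) of 20 tested channel genes, with 1 point per mouse (circles, 4 βPrlR+/- mice; squares, 3 Prlr+/- mice) and a line at each group mean. CACNB3, CACNA2D1 and CACNA1D were the highest, and the Prlr+/- points lie below all βPrlR+/- points for CACNG4, CACNG7, SCN3B and SCN2B.

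The groups were then compared gene by gene, to ask whether the channel genes differ between a β-cell deletion and a whole-body deletion of Prlr. None of the 21 tested genes passed an adjusted p of 0.05 with limma, against 10 of 14840 genes in all (0.0674%). The fitted fold change was below 0, that is lower in the Prlr+/- mice, for 17 of the 21 genes, against 48.3% of all genes tested. The median log2 fold change was -0.10 for the channel genes and 0.0042 for all genes tested. Without βPrlR+/- mouse 3 the median of the channel genes was -0.016 and 13 of 21 were below 0. It was -0.18 with 19 of 21 below 0 without Prlr+/- mouse 1, and -0.15 with 18 of 21 without βPrlR+/- mouse 1. The size of the shift thus depended on single mice. With TPM as deposited all 21 were below 0, with a median of -0.23, while the median of all genes was -0.12.

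At an unadjusted p under 0.05 there were 4 of 21 genes, all lower in the Prlr+/- mice, against 4.52% of all genes and 2.94% in that direction. They were SCN3B, CACNG4, CACNA2D3 and CACNG7, none of them a pore. There was no overlap between the groups for 4 of 21 genes, CACNG4, CACNG7, SCN3B and SCN2B, against 4.95% of all genes and 3.11% that were lower. SCN2B reached the mean of 0.5 TPM only through the βPrlR+/- mice (0.724 TPM, against 0.468 in the Prlr+/- mice) and so passed the filter through the group where it was high. With TPM as deposited 5 did not overlap, among them CACNG7, SCN3B and SCN2B again, with CACNA2D3 but without CACNG4. The share of all genes apart under that scaling is not given. Since the median of all genes was -0.12 there, the 3.11% above is no background for these 5. Below the level for a test, 2 of 19 genes did not overlap, CACNA2D4 and CACNG8, both lower in each Prlr+/- mouse than in any βPrlR+/- mouse. The share of all untested genes that did not overlap is not given, so this count has no background. CACNA2D4 stood at 0.192, 0.279, 0.207 and 0.258 scaled TPM in the βPrlR+/- mice, against 0.174, 0.161 and 0.181.

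SCN3B, a sodium β subunit that is found in neurons, had the smallest p of the 21 genes. It stood at 3.51, 3.84, 4.25 and 4.27 scaled TPM in the βPrlR+/- mice, against 3.15, 3.19 and 2.81 in the Prlr+/- mice. Every Prlr+/- mouse was below the lowest βPrlR+/- mouse, by a small step. The log2 fold change was -0.29 ± 0.082 (SE), with an adjusted p of 0.766 by limma. SCN2B, which links sodium channels to the nerve membrane, stood at 0.757, 0.746, 0.645 and 0.627 against 0.528, 0.546 and 0.404. Its groups did not overlap either, and its log2 fold change was -0.18 ± 0.084 (SE; limma adjusted p of 0.9999). With a pseudocount of 0.1 in place of 1 it was -0.43, since fold changes on the log2(scaled TPM + 1) scale understate the change of low genes.

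CACNG4 stood at 2.40, 3.32, 3.75 and 3.17 scaled TPM in the βPrlR+/- mice, against 2.24, 2.34 and 2.16 in the Prlr+/- mice. βPrlR+/- mouse 1 was close to the Prlr+/- mice and the other 3 well above them. The log2 fold change was -0.35 ± 0.12 (SE), with an adjusted p of 0.962 by limma. CACNG7 stood at 1.35, 1.21, 1.39 and 1.12 against 0.596, 0.873 and 1.05, and its log2 fold change was -0.31 ± 0.11 (SE; limma adjusted p of 0.962). Here the Prlr+/- mice were spread out and the highest of them came near the lowest βPrlR+/- mouse. CACNG8, the neighbour of CACNG7 on the chromosome in the RefSeq annotation of GRCm38.p6, stood at 0.0713, 0.0934, 0.0672 and 0.0910 in the βPrlR+/- mice, against 0.0289, 0.0301 and 0.0444 in the Prlr+/- mice. The other neighbours, CACNG6 beside CACNG8 and CACNG1 and CACNG5 beside CACNG4, overlapped between the groups. Their means were only 0.00979, 0.0288 and 0.0200 scaled TPM.

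Summed over the 8 γ genes, the level was 4.27 to 5.82 scaled TPM in the βPrlR+/- mice, against 3.40 to 3.63 in the Prlr+/- mice, with CACNG4 holding 56.1% to 65.9% of it. These sums did not overlap, and they did not with TPM as deposited either. Among the other calcium channel classes, the sums of the pore, α2δ and β genes overlapped, and sums of the sodium channel classes are not given.

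CACNA2D3, an α2δ subunit of neurons, stood at 1.44, 1.05, 1.10 and 0.943 scaled TPM in the βPrlR+/- mice, against 0.953, 0.508 and 0.449 in the Prlr+/- mice. Prlr+/- mouse 1 just reached the lowest βPrlR+/- mouse and the other Prlr+/- mice were well below. The log2 fold change was -0.39 ± 0.13 (SE), with an adjusted p of 0.962 by limma. Its share of the α2δ transcripts was 3.66% ± 0.95 (SD, n = 4) against 2.10% ± 0.58 (SD, n = 3) and that of CACNA2D1 92.2% ± 1.6 against 94.6% ± 0.82, and neither overlapped between the groups. These were the 2 tested genes of 21 whose share within their class did not overlap. Shares of one class are tied to each other, and the level of CACNA2D1 itself overlapped, so they are not separate results. All genes have no such share to set beside this count. CACNA2D2 stood at 1.30, 0.819, 1.30 and 0.845 against 0.832, 0.885 and 0.647 with overlap, and gave a log2 fold change of -0.20 ± 0.12 (SE; limma adjusted p of 0.9999). CACNA2D1 gave -0.06 ± 0.14.

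**Figure D3:**
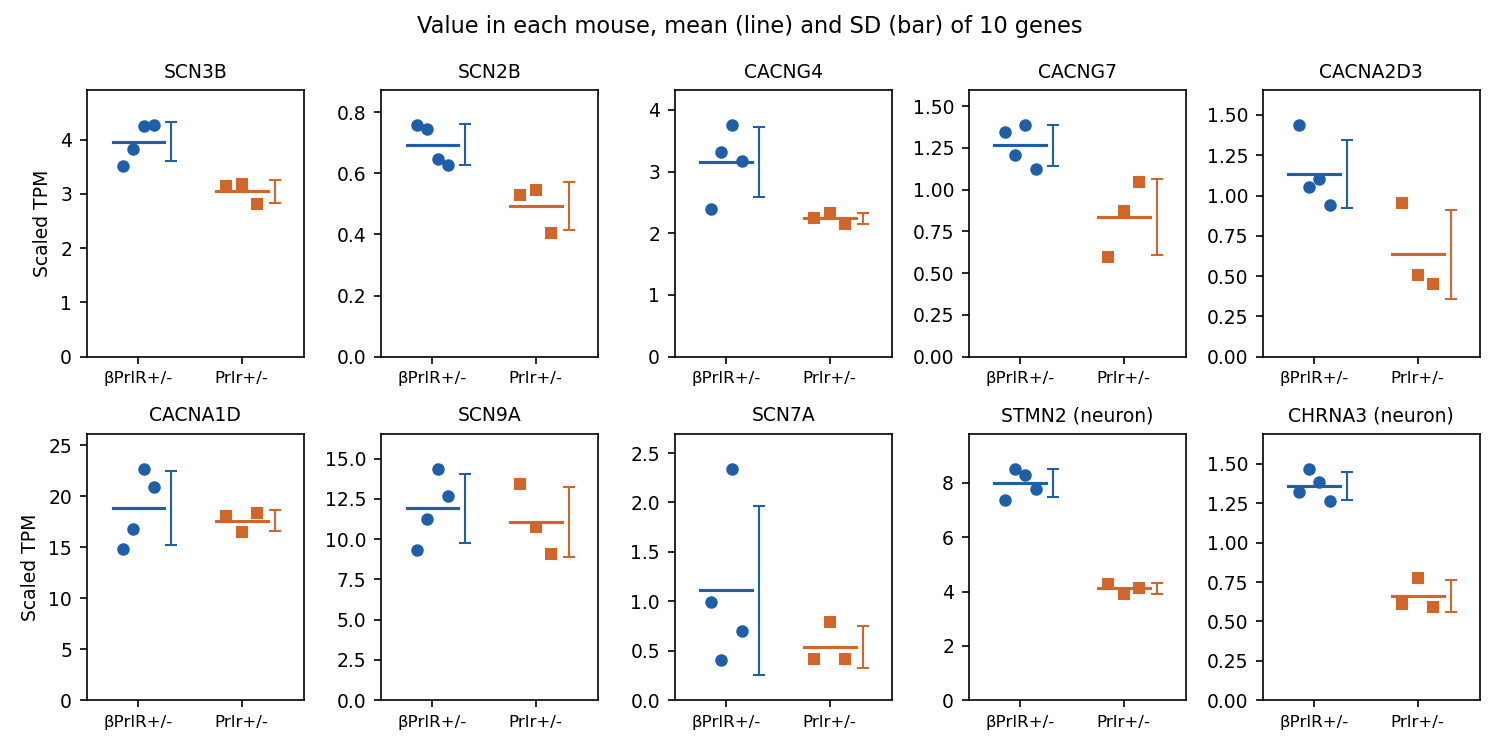
Scaled TPM of 8 channel genes and of the neuron genes STMN2 and CHRNA3 in each mouse (points), with the group mean (line) and SD (bar), 4 βPrlR+/- and 3 Prlr+/- mice. SCN3B, SCN2B, CACNG4 and CACNG7 do not overlap between groups, CACNA1D and SCN9A do, and βPrlR+/- mouse 3 is far the highest for SCN7A at 2.34.

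The pore genes and the calcium β genes gave no difference past the spread between mice. The log2 fold change was -0.07 for CACNA1D (95% interval -0.40 to 0.26), -0.04 for CACNA1A (-0.32 to 0.24), 0.03 for CACNA1C (-0.29 to 0.35), 0.04 for CACNA1B (-0.20 to 0.28) and -0.16 for CACNA1H (-0.43 to 0.10). These intervals leave room for a difference either way and do not show that the groups are alike. For the sodium pores it was -0.10 for SCN9A (-0.48 to 0.29), -0.25 for SCN3A (-0.63 to 0.14), -0.05 for SCN8A (-0.42 to 0.32) and -0.39 for SCN7A (-1.04 to 0.27). For the calcium β genes it was 0.07 for CACNB3 (-0.19 to 0.32), 0.01 for CACNB2 (-0.21 to 0.24), -0.01 for CACNB1 (-0.18 to 0.16) and -0.03 for CACNB4 (-0.24 to 0.18). Without βPrlR+/- mouse 3 the sign turned for CACNA1D, CACNA1A, CACNA2D1 and SCN8A, and the value shrank to -0.14 for SCN7A and -0.12 for SCN3A.

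**Figure D4:**
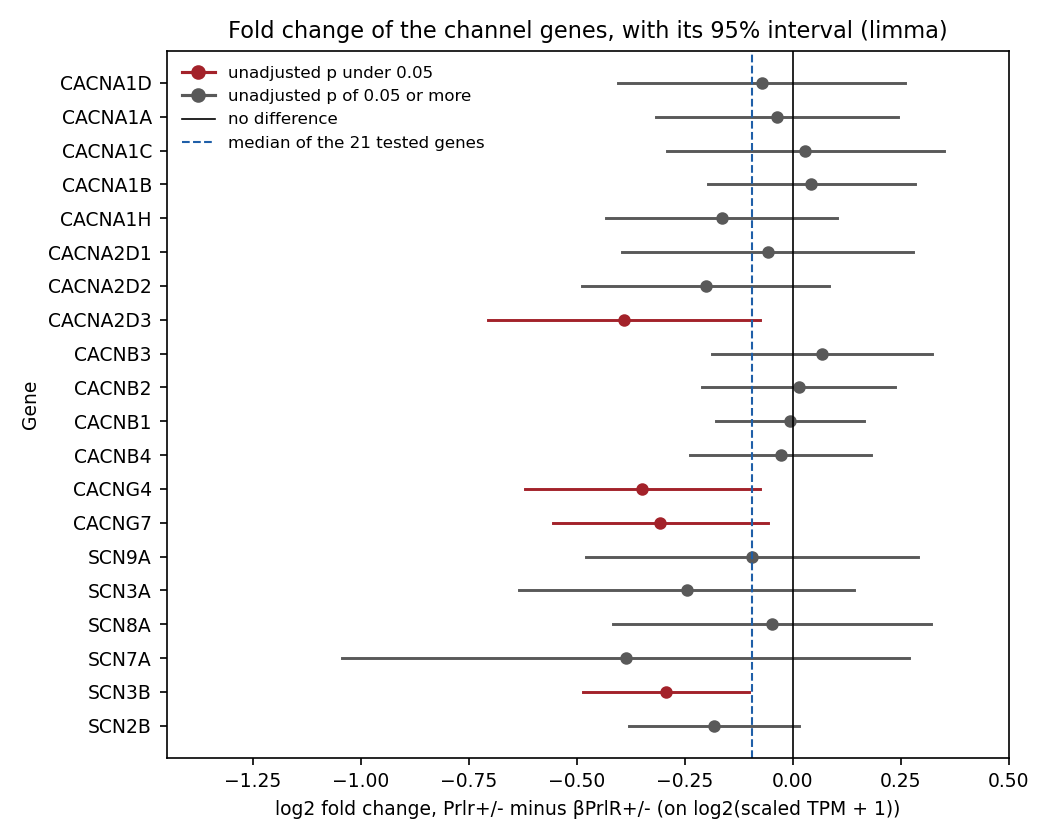
Log2 fold change of 20 tested channel genes, Prlr+/- minus βPrlR+/- on log2(scaled TPM + 1), with its 95% interval from limma. The intervals of SCN3B, CACNG4, CACNA2D3 and CACNG7 (red) do not reach 0, those of the pore and calcium β genes do, and the dashed line marks the median of -0.10 over all 21 tested genes.

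At the level of transcripts, the 40 genes had 363, and 52 of them reached the mean of 0.5 TPM. None passed an adjusted p of 0.05 with limma (0.021% of all 28553 transcripts tested did), and 2 of 52 had an unadjusted p under 0.05 against 3.91% of all. One was the only transcript of CACNG4. The other was XM_006532092.2, 1 of 10 of CACNB1, at 0.811, 1.25, 1.62 and 0.796 scaled TPM against 0.792, 0.000264 and 0.427. It reached the mean for a test only through the βPrlR+/- mice, with a mean of 0.406 in the Prlr+/- mice, while CACNB1 as a whole gave a log2 fold change of -0.01. The split of a gene among its transcripts moved between mice for some genes, and the highest of 49 of CACNA1C took 13.0% to 41.9% of the gene. It moved less for CACNA1D, where NM_028981.3 took 52.0% to 57.0%, and for CACNB2, where NM_023116.4 took 49.7% to 58.1%.

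Genes that act beside these channels were taken from a list of partners, store-operated entry, store release, pumps and mitochondrial uptake, of which 62 of 66 names were found and 49 tested. None passed an adjusted p of 0.05 with limma, and 2 of 49 had an unadjusted p under 0.05, 1 in each direction, a share close to the 4.52% of all genes. The pump gene ATP2B3 was too low for a test in the main fit. The study lists it as lower in the Prlr+/- mice, from these same samples. It lay at 0.224 to 0.315 scaled TPM in the βPrlR+/- mice, against 0.0998 to 0.191 in the Prlr+/- mice. Cbarp, which holds calcium channel β subunits and dampens the current, stood at 45.1, 49.7, 47.8 and 45.5 scaled TPM in the βPrlR+/- mice, against 52.2, 52.9 and 56.1 in the Prlr+/- mice. It was higher in each Prlr+/- mouse, with a log2 fold change of 0.19 ± 0.060 (SE; limma adjusted p of 0.918). FGF13, which binds the tail of sodium pores, stood at 0.592, 0.952, 0.848 and 0.895 against 0.360, 0.471 and 0.473. It was lower in each Prlr+/- mouse, with a log2 fold change of -0.34 ± 0.10 (SE; limma adjusted p of 0.825), but all its Prlr+/- values were under 0.5, and it was tested only through the βPrlR+/- mice. CAMK2G, a kinase subunit, was lower in each Prlr+/- mouse by a small step, with 5.91 to 6.51 against 5.75 to 5.86 (-0.05 ± 0.059).

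The 49 tested genes of that list, these 2 among them, were split evenly, with 24 below 0 and 25 above, and a median of 0.03. Among the highest, the kinase subunit CAMK2B had means of 74.4 ± 2.6 (SD, n = 4) and 72.8 ± 9.2 (SD, n = 3), and the active zone protein RIMBP2 40.1 ± 3.2 and 42.0 ± 11. Of store-operated entry, STIM1, ORAI3 and STIM2 had 36.5 ± 5.2, 22.9 ± 1.5 and 13.2 ± 0.39 in the βPrlR+/- mice, against 34.9 ± 5.1, 22.7 ± 1.1 and 12.6 ± 0.90 in the Prlr+/- mice. The pumps of the endoplasmic reticulum, ATP2A2 and ATP2A3, were far above every channel gene, with 257 ± 34 and 248 ± 32 against 307 ± 54 and 282 ± 12, and ATP2B1 of the plasma membrane had 24.7 ± 2.7 and 24.4 ± 1.2.

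The calcium-activated cation channel TRPM5, with 35.3 ± 16 and 51.9 ± 5.9, had the largest fitted difference of the list, 0.63 ± 0.29 (SE; limma adjusted p of 0.9999), and βPrlR+/- mouse 1 was the highest of all mice for it. The store release channels ITPR3 and ITPR1 had 14.2 ± 2.7 and 13.1 ± 3.0 against 14.4 ± 2.2 and 11.9 ± 1.2. Of mitochondrial uptake, SMDT1 and MICU2 had 90.8 ± 9.4 and 30.3 ± 1.8 against 94.6 ± 11 and 32.4 ± 3.7. All these groups overlapped.

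Among the neuron markers, PRPH and STMN2 were lower in the Prlr+/- mice. Of 15 autonomic neuron genes 13 were tested and 12 were below 0, against 48.3% of all genes. An unadjusted p under 0.05 was found for 10 of the 13 against 4.52% of all genes, 9 lower against 2.94% (among them PRPH, STMN2, HAND2, CHRNA3, SLC5A7, SLC18A3 and NEFL) and ELAVL4 higher. PRPH and STMN2 passed the threshold, as 0.0674% of all genes did, with adjusted p of 0.0243 and 0.0173 by limma. STMN2, a protein of growing nerve fibres, stood at 7.37, 8.52, 8.31 and 7.76 scaled TPM in the βPrlR+/- mice, against 4.29, 3.92 and 4.14 in the Prlr+/- mice. On the log2(scaled TPM + 1) scale, which understates low genes, its fitted difference (-0.81) was larger than in any of the channel genes tested. Summed, the list lay at 145 to 176 against 122 to 155, with none of its genes at 0 in all mice, and the sum rests mostly on SNAP25 and TH, which endocrine cells also express. Several of the lower genes are named by the study from these same samples, so their direction is no independent evidence. The part of nerve in the lower SCN3B, SCN2B, CACNG4, CACNG7 and CACNA2D3 was not tested. In whole islets, fewer cells of a type and less RNA per cell cannot be told apart.

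In the lists of vessel, islet and other cells no gene passed the adjusted threshold with limma. At an unadjusted p under 0.05, the α-cell gene GC and the glia gene S100B were lower and the β-cell gene MAFA higher. S100B was under a mean of 0.5 in the Prlr+/- mice and was tested only through the βPrlR+/- mice. All 7 endothelial genes were below 0, 4 of them, PECAM1, CDH5, PLVAP and TIE1, at an unadjusted p under 0.05 (2.94% of all genes were so in this direction), with a sum of 154 to 190 against 129 to 163, and all 7 tested smooth muscle and pericyte genes were below 0, with a sum of 47.6 to 61.3 against 36.0 to 51.7. Both sums overlapped between the groups, though not with TPM as deposited. All 5 α-cell genes and all 4 δ- and PP-cell genes were below 0, with medians of -0.22 and -0.23. The δ- and PP-cell sum did not overlap between the groups, with 18153 to 21235 scaled TPM against 15724 to 17383, whereas the α-cell sum did, except with TPM as deposited. Of the β-cell genes, 9 of 10 were above 0, with a median of 0.30, and their sum overlapped, except with TPM as deposited, where it was higher in each Prlr+/- mouse. The 5 acinar genes had fitted values above 0, but the mean of their sum was lower in the Prlr+/- mice (7597 against 8725 scaled TPM), with βPrlR+/- mouse 2 far the lowest of all mice at 1594. Of 8 Schwann and satellite glia genes 7 were tested, 6 were below 0, and the sum was 9.05 to 13.6 against 8.16 to 10.6. Among the genes below 0, CDH19 and FABP7, like S100B, were tested only through the βPrlR+/- mice. Their means were 0.882 and 1.01 scaled TPM in the βPrlR+/- mice, against 0.354 and 0.473 in the Prlr+/- mice. Within this list SOX10 and CDH19, defining genes of glia, peaked in βPrlR+/- mouse 3 at 1.10 and 1.76, as SCN7A did. Skeletal and cardiac muscle genes summed to no more than 1.83 in any mouse. The part of these cells in the channel values was not tested.

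βPrlR+/- mouse 3 was the highest mouse for 13 of the 21 tested channel genes and the lowest for none. It had the lowest insulin share, 46.1% of all TPM, and an acinar gene sum of 14263 scaled TPM, close to the 14347 of βPrlR+/- mouse 1, which was highest for 3 channel genes only. At the other end, Prlr+/- mouse 3, with the highest insulin share of 58.9%, was the lowest mouse for 9 of the 21. The part of these differences between mice in the fold changes was not tested.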

How the data were processed

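Islet poly(A) RNA of 4 βPrlR+/- and 3 Prlr+/- mice was analysed, with mice numbered in the order of the deposited samples. The authors assigned strand-specific reads to mouse RefSeq transcripts with kallisto 0.42.4, and the deposited values, named FPKM in the methods, sum to 1000000 per mouse and were handled as TPM (a length-corrected share of all transcripts). TPM hold no depth, so no counting error is given. All 40 gene values equalled the sum of their transcripts within 0.1%.

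TPM were divided by a median-ratio size factor, taken over genes above 0 in every mouse with a mean of at least 0.5. Genes with that mean were fitted on log2(scaled TPM + 1) with limma 3.58.1 in R 4.3.3 (trend), with Benjamini-Hochberg adjustment over all 14840 genes and a threshold of 0.05. The model was tested on simulated data. Each library is 1 mouse, so the p-values measure the spread between mice. The members and lists were chosen with earlier results of these data known. Members are named, except that some genes of the lists are not reported here. Values by mouse are given, with that exception, for the 4 highest genes of each pore class, the 2 highest of each other class, and each gene with an unadjusted p under 0.05 or with groups that do not overlap. Of the calcium handling and marker lists, genes with an unadjusted p under 0.05 are named, with the same exception. For calcium handling, up to 3 highest per part are named too. CAMK2G, ATP2B3 and the marker genes otherwise named were chosen after their values were seen. Alternatives were a pseudocount of 0.1, unscaled TPM, scaling by the upper quartile, other filters, robust limma, transcripts and leaving out each mouse. Symbols and promoters are from RefSeq (GRCm38.p6), and the genome build of the files is not given in the sources used here. Other steps used Python 3.11.15 with pandas 2.3.3, numpy 2.4.6, scipy 1.17.1 and matplotlib 3.10.9.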

Additional observations from a re-analysis of the deposited data

How the results depend on the processing

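No channel gene and no gene of the calcium handling list passed the threshold under any of the alternatives tried, and the smallest adjusted p that a named channel gene reached was 0.276, for CACNG4. Over all genes, 10 passed, against 18 with a pseudocount of 0.1, 4 with all genes above 0, 6 with a mean TPM of at least 5, 6 with the size factor from all genes above 0 (chosen after seeing the data), and 2 to 12 with a mouse left out. The median log2 fold change of the channel genes was -0.2299 with TPM as deposited, and it ranged from -0.18 without Prlr+/- mouse 1 to -0.016 without βPrlR+/- mouse 3. With a mean of at least 5 there were 8 channel genes left, 0 of which had groups apart. With a mouse left out 4 to 6 had groups apart and 2 to 4 an unadjusted p under 0.05, the 2 without Prlr+/- mouse 3. Groups of fewer mice overlap less often, so the 4.95% of all genes in the main fit does not apply to these counts. With all genes above 0, the latter were 9 of 40. The shares of all genes under these alternatives are not given, so these counts cannot be set against a background.

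The 9 named genes near 0 changed sign, and the other 9 of 18 kept it under every alternative. With TPM as deposited the log2 fold change was -0.0835 for CACNA1C, -0.0632 for CACNA1B, -0.0751 for CACNB3 and -0.1195 for CACNB2. With the highest transcript in place of the gene it was 0.1311 for CACNA1A, 0.001 for SCN9A and 0.0321 for SCN8A. With a mouse left out it ranged from -0.1739 to 0.0203 for CACNA1D, -0.0969 to 0.0675 for CACNA1A, -0.0644 to 0.1277 for CACNA1C, -0.0258 to 0.1101 for CACNA1B, -0.1804 to 0.0461 for CACNA2D1, -0.0238 to 0.1855 for CACNB3, -0.0597 to 0.1165 for CACNB2, -0.2304 to 0.0269 for SCN9A and -0.1345 to 0.0822 for SCN8A. The cause was not tested. Over the alternatives SCN3B lay between -0.41 and -0.21, CACNG4 between -0.46 and -0.28, CACNG7 between -0.57 and -0.21, CACNA2D3 between -0.79 and -0.24 and SCN2B between -0.43 and -0.088. The lowest values of CACNG4, CACNG7, CACNA2D3 and SCN2B came with a pseudocount of 0.1. No paired analysis was possible because the labels give no replicate numbers that pair mice across the groups.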
